A study of Homo sapiens and Mus musculus with 16 samples.

Results

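The 9 matrix metalloproteinase genes MMP2, MMP7, MMP9, MMP11, MMP14, MMP15, MMP16, MMP24 and MMP28 were examined for accessible chromatin in human and mouse pancreatic cancer cell lines. A region was taken as a member when it overlapped one of these genes, or the mouse ortholog, with 50 kb added on each side. This gave 369 member regions of 364071 in all: 116 of 118107 in the HPAF-II control (Cas9) list, 99 of 97047 in the HNF4G-KO list, 72 of 68074 in the KPC primary tumor list and 82 of 80843 in the KPC liver mets list. For MMP16 the window was also widened to 1 Mb on each side. The genes had been selected on measured values of these same lists, so that their counts and ranks are given as a description and no test was made of them.

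The assay was ATAC-seq on 16 samples, in 4 groups of 4 replicates, with a transposase that cuts and tags DNA not packed by nucleosomes. HPAF-II is an established human pancreatic adenocarcinoma line. Its control group had received Cas9 and is given as WT in genotype, and its HNF4G-KO group carried a CRISPR disruption of HNF4G, a nuclear receptor of the hepatocyte nuclear factor family. The study's methods describe single-cell clones that were called knockouts and pooled, and also state that the clones used in later experiments carried heterozygotic frameshift mutations. Which clones or pool entered each ATAC-seq replicate is not given in the sources used here. The mouse groups were an untreated cell line from a KPC primary tumor and one from KPC liver metastases (mets), both labelled WT with no alleles listed, and described by the study as matched and isogenic. KPC mice are a genetically engineered model of pancreatic cancer that uses Cre recombinase expressed in the pancreas, and each group here is 1 line. The lists hold no sequence changes, so they do not check the knockout.

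Matrix metalloproteinases are zinc-dependent enzymes that cleave collagens and other components of the extracellular matrix, and they are known for their part in the invasion of basement membranes by carcinoma cells. They are made as inactive proenzymes, are activated by proteolysis, and are held in check by the TIMP proteins. Several genes of the family have AP-1 and PEA3 elements near their start sites, which are bound by FOS and JUN proteins and by ETS proteins respectively.

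Each group was deposited as 1 list of regions, so none of the values below has a replicate check and the number of reads behind each region is unknown. The deposited score was used as a percentile within its own list, where 100 is the highest score of that list. A region was called shared when it overlapped a region of its pair's other list by at least 1 bp, and otherwise control-only, KO-only, tumor-only or mets-only. Differences in rank were taken over the shared control or tumor regions, each set against the region of the other list that it overlapped most. Where 1 region was met by several smaller ones, the others of these did not enter those counts. Absence from a list means that no region was called there, not that the DNA was closed. A lower score from fewer cells with an open site cannot be told apart from less frequent opening in every cell.

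At the 9 human loci 26 of 116 control regions were control-only, or 22.4% (95% Wilson interval 15.8 to 30.8, counting error only), beside 25.0% of all control regions. In the other direction 4 of 99 HNF4G-KO regions were KO-only (4.0%, 1.6 to 9.9), beside 6.76% of all regions of that list. At the mouse loci 15 of 82 mets regions were mets-only (18.3%, 11.4 to 28.0), beside 20.2% of all, and 8 of 72 tumor regions were tumor-only (11.1%, 5.7 to 20.4), beside 8.51% of all. The shares of the whole lists stand beside these counts as background, and nothing particular to the loci is read from the counts. Both balances turned when each pair was compared over the same number of its strongest regions, to 5 control-only and 9 KO-only regions and to 6 mets-only and 12 tumor-only regions.

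Regions in one list ranked low. The 26 control-only regions had a median percentile of 16.1 and a median width of 265.5 bp, against 62.6 and 582.5 bp for the shared control regions. The medians were 16.4 for the 4 KO-only, 16.8 for the 8 tumor-only and 18.5 for the 15 mets-only regions. One-list regions ranked low over the whole lists too, with medians of 17.9 for all control-only, 11.5 for KO-only, 11.6 for tumor-only and 19.4 for mets-only regions. The median width was 263.0 bp for all control-only and 565.0 bp for all shared control regions, so neither trait is particular to the loci. Only 1 of the 53 one-list member regions ranked in the upper 50% of its list, a mets-only region in an intron of Mmp16 at percentile 60.9. Promoters, meaning within 1 kb of any annotated start site, made up 32.8% of control and 38.4% of HNF4G-KO member regions, against 24.7% and 27.2% of all regions of those lists. In the mouse lists they made up 38.9% of tumor and 36.6% of mets member regions, against 27.9% and 26.3% of all regions. Many of these promoters belong to neighboring genes, which are named below.

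**Figure D1:**
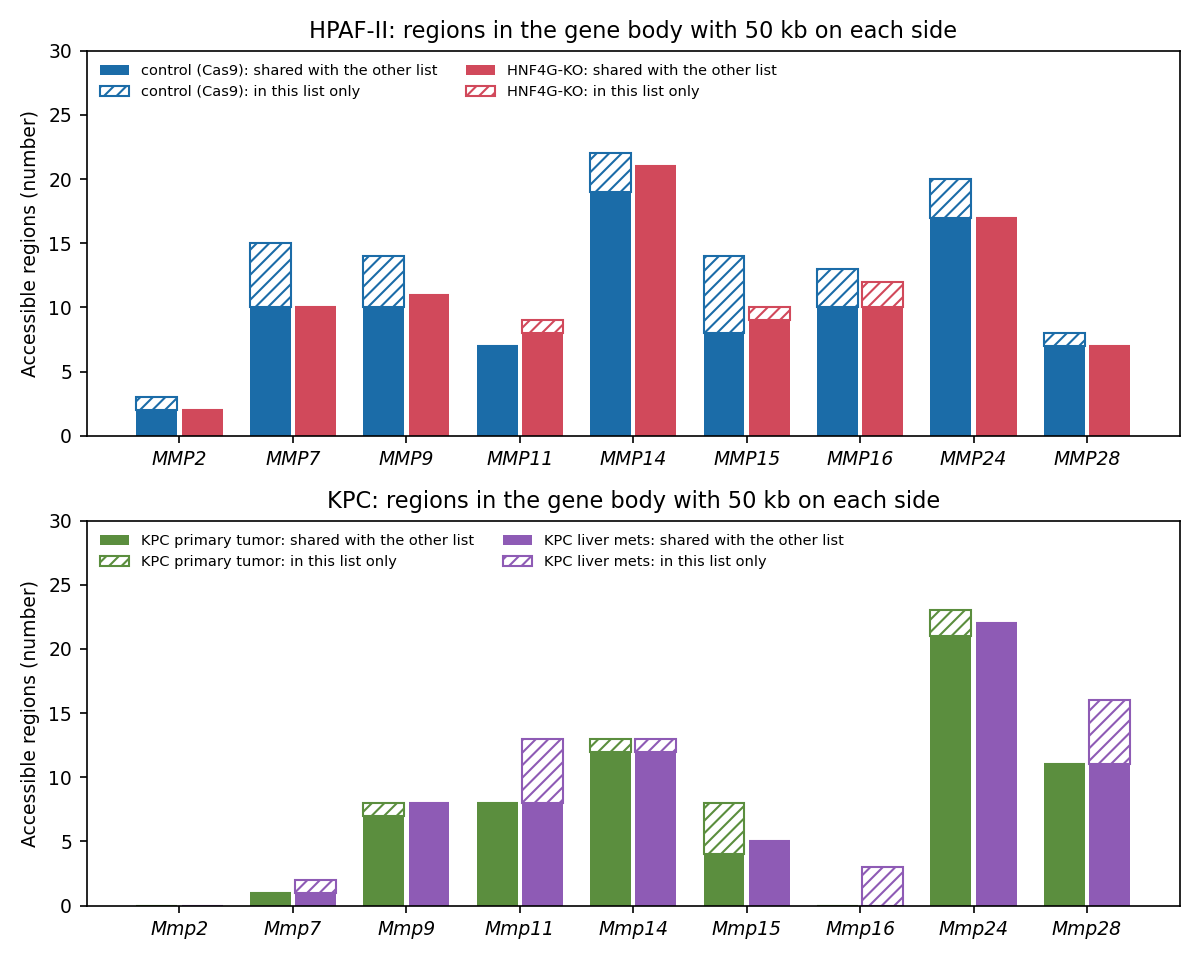
Number of accessible regions in each gene body with 50 kb on each side, by gene and list, with solid bars for regions shared with the other list of the pair and hatched bars for regions in that list only. MMP15, MMP7 and MMP9 had the most control-only regions (6, 5 and 4), Mmp11 and Mmp28 had 5 mets-only regions each, Mmp2 had no region in either mouse list, and Mmp16 had 3 regions in mets and 0 in the tumor. Over the whole lists 25.0% of control regions were control-only and 20.2% of mets regions mets-only.

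The start sites of the members differed in whether they held a region at all. Within 1 kb of a start site annotated for the gene itself, 7 of 9 human genes had a region in the control list and 7 of 9 in the HNF4G-KO list, with MMP2 and MMP9 lacking one in both. Of the mouse genes, 5 of 9 had one in the tumor and 4 of 9 in mets, with Mmp2, Mmp7, Mmp14 and Mmp16 lacking one in both lists. The highest start-site region of MMP28 ranked at percentile 78.5 in control and 82.4 in HNF4G-KO, that of MMP15 at 73.0 and 69.2, that of MMP11 at 69.7 and 68.0, and that of MMP14 at 63.4 and 58.4. The highest was taken in each list separately, so the values of a gene need not belong to overlapping regions. For MMP14 the control region at 63.4 was paired with one at 53.7, and the HNF4G-KO region at 58.4 with one at 49.7. The MMP15 control region at 73.0 overlapped most with one at 51.7. MMP7 stood at 67.3 in control and 34.5 in HNF4G-KO, the widest gap among the 9 genes. MMP24 was at 39.1 and 41.9, and MMP16 was lowest, at 14.7 and 5.19. The MMP11 values belong to a region centered 13.5 kb from the gene start, at another annotated start. Closer to the annotated gene start of MMP11, a region that also overlaps the start of CHCHD10 ranked at 49.2 in control and 37.5 in HNF4G-KO. The RefSeq start of MMP11 lies elsewhere, and the nearest control region to it was 1464 bp away. In the mouse lines Mmp24 ranked highest, at 72.9 in the tumor and 74.1 in mets, followed in the tumor by Mmp28 (61.9), Mmp9 (54.0) and Mmp11 (46.5), which in mets stood at 49.2, 56.0 and 66.8. The Mmp24 region lay 31.4 kb from the gene start and the tumor region of Mmp9 12.7 kb, each near another annotated start.

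MMP9 encodes gelatinase B, a secreted enzyme that degrades type IV collagen of basement membranes. The human gene lies at chr20:46008908-46016561 (hg38, plus strand), with ZNF335, SLC12A5 and NCOA5 in its window. The window held 14 control regions, among which 4 were control-only, and 11 HNF4G-KO regions that were all shared. It also held the highest-ranking member region of HPAF-II, centered 15.2 kb upstream of the gene start at chr20:45993220-45994099, with percentile 99.8 in control and 99.9 in HNF4G-KO. A second strong region covered exon sequence of the gene 5.3 kb from the start and ranked at 87.0 and 90.9. No region lay within 1 kb of the start itself. The nearest was a control-only intronic region at percentile 22.0, 2.9 kb away, and in the HNF4G-KO list a region 3.8 kb away at percentile 11.8, whose control counterpart ranked at 26.5.

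The middle of the highest-ranking MMP9 region is printed next because its rank was nearly the same with and without HNF4G. The 300 bases of the plus strand at chr20:45993510-45993809 hold 1 AP-1 consensus (TGACTCA or TGAGTCA), in capitals.
MMP9 upstream region: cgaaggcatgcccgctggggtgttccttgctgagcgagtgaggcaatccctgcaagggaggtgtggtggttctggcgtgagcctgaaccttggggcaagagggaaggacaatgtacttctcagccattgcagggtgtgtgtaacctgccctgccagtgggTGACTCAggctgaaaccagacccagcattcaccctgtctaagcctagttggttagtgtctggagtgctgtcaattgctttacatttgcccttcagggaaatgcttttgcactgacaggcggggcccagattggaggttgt

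In the mouse lines the Mmp9 window at chr2:164940780-164955850 (mm10) held 8 regions in each list. The 1 tumor-only region was at Slc12a5 with percentile 16.4, and mets had no region of its own. A region centered 16.1 kb upstream of the mouse gene ranked at 71.1 in the tumor and 79.6 in mets, the highest of the window in both. The annotated mouse gene spans 15.1 kb with 4 start sites and the human gene 7.7 kb with 1. This distance is therefore not compared with that of the strongest human region, and no alignment was made between them. The region near the start of a shorter transcript ranked at 54.0 and 56.0. Of the 7 tumor regions that were shared, 6 ranked higher in mets, and 5 did so when ranks were taken among shared regions only. Of all 62280 shared tumor regions 40446 ranked higher in mets.

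MMP2 encodes gelatinase A, which cleaves type IV collagen and gelatin and is activated at the cell surface by MMP14. Its window was the poorest of the human loci, with 3 control and 2 HNF4G-KO regions over a gene of 117.0 kb at chr16:55389700-55506691 (hg38). A region in an intron of the gene at its full annotated length ranked at 61.3 in control and 69.0 in HNF4G-KO. In the control list it was centered 75.7 kb from the gene start and lay 13194 bp from the nearest of 8 annotated starts. The other shared region, 2.2 kb from the nearest annotated start in the control list, went from percentile 12.5 to 1.15. The control-only region lay upstream at percentile 5.44. No region of either mouse line overlapped Mmp2 with 50 kb on each side, and the closest was 120.7 kb from a start site in mets and 167.5 kb in the tumor. Windows without a region were not rare in the mouse lists: 15.0% of protein-coding genes had none in mets and 18.4% had none in the tumor, against 3.4% in control and 4.3% in HNF4G-KO.

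MMP7 encodes matrilysin, a small secreted protease made mainly by epithelial cells, which also sheds proteins from the cell surface. The human gene lies at chr11:102520508-102530750 (hg38, minus strand) beside MMP20. Its window held 15 control and 10 HNF4G-KO regions. Of the control regions 5 were control-only (33.3%, beside 22.7% on the whole chromosome), at percentiles 21.2, 20.3, 15.8, 6.99 and 1.13. Of these 5, 4 lay nearer to the start of MMP7 than to that of any other protein-coding gene, at 8.9 and 16.6 kb upstream and at 11.1 and 11.9 kb beyond the start. The start-site region at chr11:102530275-102531016 ranked at 67.3 in control and 34.5 in HNF4G-KO, a difference of -32.8 percentile points. This was the second widest drop in rank among the 90 shared control regions, each paired with 1 HNF4G-KO region. It was -26.4 points when ranks were taken among shared regions only. Farther upstream the ranks moved less, from 90.3 to 85.2 at 21.9 kb, from 95.5 to 94.4 at 33.5 kb and from 73.6 to 66.9 at 43.5 kb. On the downstream side a region 36.4 kb from the start went from 65.15 to 48.94. Of the 10 shared regions 9 ranked lower in HNF4G-KO, beside 70.0% of all shared control regions. Among shared regions only, 4 of the 10 ranked lower, with a median of 1.6 points.

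The bases before the MMP7 start are shown because the largest drop of any member start site was found over them. They were taken from the RefSeq promoter table for GRCh38.p14, which held 5 of the 9 genes (MMP7, MMP11, MMP14, MMP15 and MMP24), and all 250 bases lie inside the region of both lists. The sequence is read 5′ to 3′ along the gene from chr11:102530748-102530997 (hg38, minus strand) and ends at the base before the start. Capitals mark 1 AP-1 consensus, which ends 60 bases before the start, and 2 copies of the PEA3 hexamer (AGGAAG, here as CTTCCT). AP-1 occurred in 4.95% and PEA3 in 33.6% of all 35116 promoter windows of the table, each 300 bases long, and MMP7 was the only one of the 5 listed members to hold either.
MMP7 start-site region: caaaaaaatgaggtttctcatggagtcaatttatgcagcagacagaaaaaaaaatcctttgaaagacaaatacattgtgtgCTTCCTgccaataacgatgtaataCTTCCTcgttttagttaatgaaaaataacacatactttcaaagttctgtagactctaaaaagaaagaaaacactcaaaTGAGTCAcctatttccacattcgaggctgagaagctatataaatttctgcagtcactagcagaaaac
The second sequence is the control-only region centered 16.6 kb upstream of MMP7, at chr11:102547182-102547439 (hg38, plus strand), which ranked at percentile 20.3. It is shown as the only control-only member region with the HNF4 consensus CAAAGTCCA, here on the other strand as TGGACTTTG and in capitals.
MMP7 upstream control-only region: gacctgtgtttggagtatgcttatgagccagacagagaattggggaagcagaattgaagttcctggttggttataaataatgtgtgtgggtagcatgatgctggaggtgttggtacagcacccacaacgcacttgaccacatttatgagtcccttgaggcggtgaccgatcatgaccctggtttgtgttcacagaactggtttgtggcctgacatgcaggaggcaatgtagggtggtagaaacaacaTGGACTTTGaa

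In the KPC lines the Mmp7 window was nearly empty. The gene lies at chr9:7692090-7699585 (mm10, plus strand). One shared region near Tmem123, 57.6 kb from the start, ranked at 72.6 in the tumor and 82.8 in mets, and 1 mets-only region at percentile 18.5 lay 22.1 kb from the start. No region was called at the start in either line.

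MMP11 encodes stromelysin-3, which is activated by furin inside the cell and is known in carcinomas mainly from the stroma. In human its window at chr22:23768226-23784316 (hg38) also held CHCHD10, VPREB3, ZNF70, C22orf15 and SMARCB1. The 7 control regions were all shared, and each ranked lower in HNF4G-KO. The widest drops were from 47.2 to 21.4 at the CHCHD10 promoter and from 51.1 to 37.8 over an exon of MMP11. The median difference over the 7 was -9.38 points, beside -4.65 over all 88632 shared control regions. When ranks were taken among shared regions only, 5 of the 7 ranked lower, with a median of -2.09 against 0.68 for all. The window held 1 KO-only region, at percentile 33.2, which began 216 bp past the RefSeq start of MMP11. In the control list the nearest region to that start was 1464 bp away.

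The KO-only region of MMP11 is shown in full as the only KO-only region within 1 kb of the start of any of the 9 genes. It covers chr22:23773065-23773328 (hg38, plus strand), with 67.8% G and C, and its 1 PEA3 hexamer is in capitals.
MMP11 KO-only region: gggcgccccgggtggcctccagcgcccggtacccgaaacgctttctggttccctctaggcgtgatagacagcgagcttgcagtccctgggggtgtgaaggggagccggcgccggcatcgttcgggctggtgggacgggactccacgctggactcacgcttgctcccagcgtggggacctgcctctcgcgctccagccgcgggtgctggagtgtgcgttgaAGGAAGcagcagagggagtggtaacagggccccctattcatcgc

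In the KPC lines the ranks in the Mmp11 window moved the other way, from the tumor to mets. The gene lies at chr10:75923222-75936496 (mm10, minus strand), with Chchd10, Vpreb3, Smarcb1 and Derl3 among its neighbors. It held 8 regions in the tumor, all shared, and 13 in mets. Of the 13, 5 were mets-only (38.5%, beside 26.6% on the whole chromosome), at percentiles 49.5, 28.0, 1.55, 0.74 and 0.65. Each of the 8 shared regions ranked higher in mets, also when ranks were taken among shared regions only, with medians of 12.3 and 9.66 points, beside 3.67 and 0.99 for all shared tumor regions. The start-site region, which lies between Mmp11 and Chchd10, ranked at 46.5 in the tumor and 66.8 in mets. A region in an intron of Mmp11 ranked at 78.3 and 84.7, and one at the Derl3 promoter ranked at 98.5 and 99.6. The widest differences of any member in the KPC pair lay beyond Derl3, 55.0 and 63.5 kb from the Mmp11 start, where 1 region went from percentile 25.3 to 72.4 and another from 27.1 to 70.7.

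The center of the first of these is printed from chr10:75881331-75881630 (mm10, plus strand), as the member region with the largest difference in rank between the KPC lines. A RUNX consensus (TGTGGTTT) is in capitals, and was found in 6.57% of all tumor regions.
Mmp11 downstream region: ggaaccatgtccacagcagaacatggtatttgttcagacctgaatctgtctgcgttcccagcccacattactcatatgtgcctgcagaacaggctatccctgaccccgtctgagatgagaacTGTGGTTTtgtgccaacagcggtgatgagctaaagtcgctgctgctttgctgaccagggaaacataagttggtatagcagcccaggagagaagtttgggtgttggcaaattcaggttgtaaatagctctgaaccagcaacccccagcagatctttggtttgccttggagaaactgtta

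**Figure D2:**
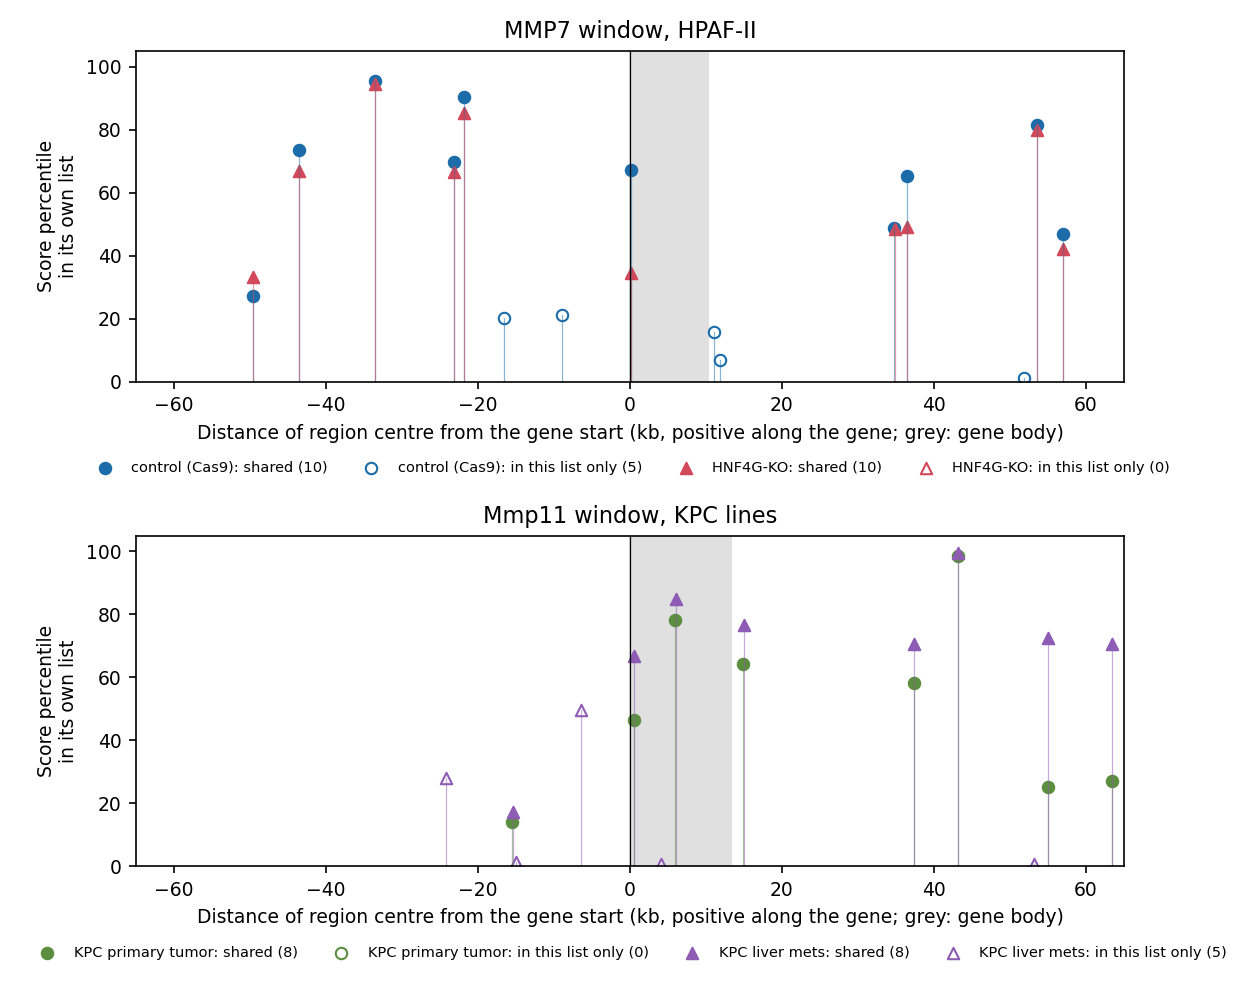
Score percentile of each region in its own list against the distance of its center from the gene start, for MMP7 in the HPAF-II lists (top) and Mmp11 in the KPC lists (bottom), with filled symbols for shared and open symbols for one-list regions and the gene body in grey. At the MMP7 start the control point is at 67.3 and the HNF4G-KO point at 34.5, and in the Mmp11 window all 8 mets points of shared regions lie above those of the tumor.

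MMP28 encodes epilysin, a secreted enzyme found in keratinocytes and other epithelia. The human gene lies at chr17:35756249-35795707 (hg38, minus strand). Its window held 8 control regions, with 1 control-only at percentile 28.3 near RASL10B, and 7 HNF4G-KO regions, all shared. The largest increase in rank among the 90 shared human regions was an intronic region 12.2 kb from the MMP28 start, at 47.1 in control and 68.0 in HNF4G-KO. The start-site region ranked at 78.5 and 82.4, and another intronic region, 31.2 kb from the start, at 96.4 and 98.1. In the KPC lines Mmp28, at chr11:83440768-83463071 (mm10), had 11 tumor regions, all shared, and 16 mets regions. The 5 mets-only regions (31.2%, beside 15.8% on the whole chromosome) ranked between 10.5 and 37.3, and 2 of them lay in introns of Mmp28. The start-site region ranked lower in mets, at 49.2 against 61.9, while 3 regions in introns of the gene ranked higher, at 49.3, 59.5 and 77.3 against 32.2, 48.8 and 75.5.

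MMP14 encodes the first membrane-type enzyme, MT1-MMP, a transmembrane collagenase that activates the MMP2 proenzyme. The human gene lies at chr14:22836560-22849041 (hg38, plus strand), and its window was the densest of the human loci, with 22 control and 21 HNF4G-KO regions. The 3 control-only regions ranked at 23.6, 21.2 and 16.4, and no HNF4G-KO region lacked a control counterpart. The control region over the start, at percentile 49.7, was met by 2 HNF4G-KO regions, at 58.4 and 28.0. A further region 0.9 kb into the gene ranked at 63.4 and 53.7. The strongest region lay at the LRP10 promoter, at 94.7 and 95.4. Upstream, toward the amino acid transporter gene SLC7A7, 8 of 10 shared control regions ranked lower in HNF4G-KO, beside 70.0% of all shared control regions. Over the whole window, with ranks taken among shared regions only, 10 of 19 ranked lower and 9 higher. The widest drop among the 90 paired control regions was there, from 48.9 to 13.0 at a region 45.0 kb upstream of the MMP14 start. Wider gaps were found only at smaller HNF4G-KO regions beside a stronger one over the same control region. One, 14.3 kb upstream of MMP14, ranked at 6.36 against 55.9 in control, and its stronger neighbor at 51.9. The other, 37.6 kb upstream of MMP9, ranked at 15.1 against 79.4, and its stronger neighbor at 78.7. Downstream near REM2 a region 50.5 kb from the start ranked at 75.9 and 87.8.

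In the KPC lines Mmp14, at chr14:54431612-54445364 (mm10), had 13 regions in each list, with 1 tumor-only at percentile 16.4 and 1 mets-only at 3.47. No region lay within 1 kb of its start. The closest were the mets-only intronic region 1.0 kb away and a shared region 2.7 kb away in the tumor, at 52.6 in the tumor and 55.5 in mets. The 4 shared regions nearest to Slc7a7 ranked higher in mets, from 25.5 to 48.8, 21.3 to 45.2, 30.1 to 48.5 and 31.8 to 53.3. Of the 12 shared tumor regions 9 ranked higher in mets, beside 40446 of all 62280 shared tumor regions. When ranks were taken among shared regions only, 6 of 12 ranked higher.

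MMP24 encodes MT5-MMP, a membrane-type enzyme known mainly from the nervous system. In human its window at chr20:35226690-35276998 (hg38) overlapped MMP24OS, EIF6, FAM83C, UQCC1 and PROCR. It held 20 control regions, with 3 control-only at 43.1, 23.4 and 3.24, and 17 HNF4G-KO regions, all shared. The strongest were a region in control at 93.0 near UQCC1, which ranked at 86.9 in HNF4G-KO, and the MMP24OS promoter, at 91.8 and 96.9. The region near the MMP24 start ranked at 39.1 and 41.9. Mmp24 had the most regions of any mouse member, 23 in the tumor with 2 tumor-only at 22.4 and 17.2, and 22 in mets, all shared. The gene lies at chr2:155775342-155818366 (mm10). Its strongest region in mets was at the Edem2 promoter, at 85.6 in the tumor and 96.9 in mets, and in the tumor near Procr, at 90.3 and 88.4. Within the gene an intronic region 14.9 kb from the start had the widest drop in rank among the 64 paired tumor regions, from 64.6 in the tumor to 31.2 in mets. Its neighbor 14.0 kb from the start ranked at 42.4 and 55.0. Wider gaps stood at 2 smaller mets regions beside a stronger one, at the Zfp319 promoter near Mmp15, described with that gene, and 29.5 kb upstream of Mmp9. The latter ranked at 3.80 against 45.9 in the tumor, where the stronger mets region over the same tumor region ranked at 55.4.

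MMP16 encodes MT3-MMP, a membrane-type enzyme that also activates MMP2. In the mouse lines the 2 lists did not share a single region near it. The gene lies at chr4:17852893-18119145 (mm10, plus strand), and with 50 kb on each side the tumor list held 0 regions and the mets list 3, at percentiles 60.9, 39.7 and 12.5, all over the gene body. With 1 Mb on each side, a window of 2.27 Mb, the tumor still held 0 regions and mets held 11, all mets-only (beside 19.5% of mets regions on the whole chromosome). By position along the chromosome these ranked at 52.4, 99.2, 55.0, 33.3, 64.3, 83.0, 12.5, 60.9, 39.7, 49.9 and 7.15. Of the 11, 6 ranked in the upper 50% of the mets list. The highest, at chr4:17107937-17108411, was centered 744.7 kb upstream of the gene start, and the next, at 83.0, was 203.3 kb upstream. The start site had no region, the closest being the intronic region 9.7 kb from an annotated start.

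The tumor list was empty over more than this window. Its closest regions on either side left a stretch of 3.35 Mb, chr4:16211926-19564217, with no tumor region and with 19 mets regions, of which 1 reached the tumor region at the edge. The stretch overlapped 4 protein-coding genes, Mmp16, Cnbd1, Cngb3 and Cpne3, and held 0% unresolved bases in the assembly. On the autosomes the tumor list had 30 stretches at least this long, with a median of 6 mets regions in them and a range of 0 to 22, and the one at Mmp16 ranked second by that number. The mets list had 10 such stretches on the autosomes, holding at most 2 tumor regions each. Of 20807 autosomal protein-coding genes, 302 (1.45%) had no tumor region within 1 Mb, and Mmp16 was the only one of these with at least 11 mets regions. The limit of 11 was the count of Mmp16 itself, a gene selected on these lists. Its place among the genes is therefore a description and not a test. Over the whole of the same chromosome the lists held 24.8 tumor and 29.4 mets regions per Mb, against 4.9 mets regions per Mb in the 2.27 Mb around Mmp16. The reads of this stretch and its copy number in the tumor line were not analysed here, and their part in the result was not tested.

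The strongest mets-only region of this stretch, and the one mets-only region of any member window in the upper 50% of its list, are printed as the sequences called in one KPC line and not in the other. Each is the central 300 bases of the plus strand, from chr4:17108024-17108323 and chr4:18041680-18041979 (mm10). Capitals in the first mark AP-1, the PEA3 hexamer and the RUNX consensus on the other strand (AAACCACA). The second held none of the 9 sequences searched. AP-1 was found in 36.4%, PEA3 in 49.7% and RUNX in 6.57% of all mets regions, and AP-1 in 5 of the 11 mets regions within 1 Mb of Mmp16.
Mmp16 upstream mets-only region: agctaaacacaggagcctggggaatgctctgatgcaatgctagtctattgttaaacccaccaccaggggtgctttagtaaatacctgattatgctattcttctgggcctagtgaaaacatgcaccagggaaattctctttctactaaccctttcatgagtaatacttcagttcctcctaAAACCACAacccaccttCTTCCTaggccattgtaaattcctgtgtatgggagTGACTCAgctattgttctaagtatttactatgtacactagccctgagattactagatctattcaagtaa
Mmp16 intron mets-only region: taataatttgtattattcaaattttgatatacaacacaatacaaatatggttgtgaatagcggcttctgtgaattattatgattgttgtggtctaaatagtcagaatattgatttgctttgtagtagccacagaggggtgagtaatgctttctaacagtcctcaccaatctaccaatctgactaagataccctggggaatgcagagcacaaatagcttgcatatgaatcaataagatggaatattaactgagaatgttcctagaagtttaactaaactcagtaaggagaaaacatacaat

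**Figure D3:**
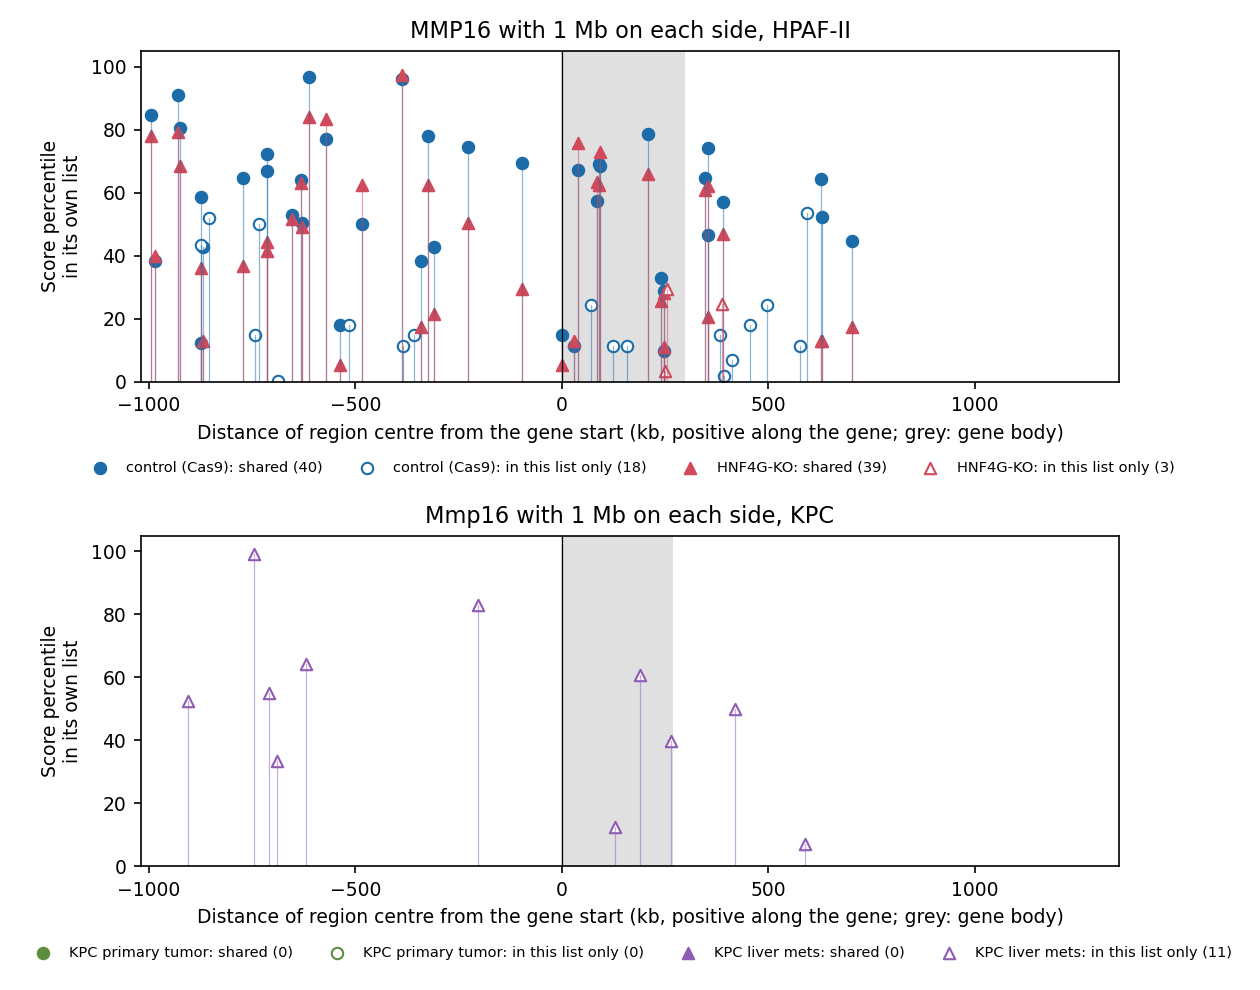
Score percentile of each region in its own list against the distance of its center from the gene start, within 1 Mb of MMP16 in the HPAF-II lists (top) and of Mmp16 in the KPC lists (bottom), with filled symbols for shared and open symbols for one-list regions and the gene body in grey. The human window holds 58 control and 42 HNF4G-KO regions, most of them shared, and the mouse window holds 11 mets regions and 0 tumor regions.

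In HPAF-II more regions were called around the same gene, although there too they were sparser than on the whole chromosome. MMP16 covers 296.0 kb on chromosome 8, from 88032011 to 88328025 (hg38, minus strand), and with 50 kb on each side it held 13 control regions, with 3 control-only at 24.4, 11.3 and 11.3, and 12 HNF4G-KO regions, with 2 KO-only at 29.5 and 3.22. No other protein-coding gene overlapped this window. The strongest were intronic, at 78.6 in control and 66.0 in HNF4G-KO 207.7 kb from the start, and at 67.0 and 75.8 at 38.2 kb. With 1 Mb on each side the window held 58 control regions, of which 18 were control-only (31.0%, 20.6 to 43.8, beside 25.0% of all control regions), and 42 HNF4G-KO regions, of which 3 were KO-only (7.1%, 2.5 to 19.0, beside 6.76% of all). This came to 25.3 control and 18.3 HNF4G-KO regions per Mb, against 38.6 and 31.6 on the whole chromosome. The 3 control-only regions in the upper 50% of the list ranked at 53.4, 51.8 and 50.1. Of the 40 shared control regions 30 ranked lower in HNF4G-KO, with a median of -11.0 points, and among shared regions only 23 ranked lower, with a median of -3.40. Of all shared control regions 70.0% ranked lower, and 46.6% did so among shared regions only. The region at 387.9 kb upstream stayed near the top of both lists, at 96.0 and 97.4, while the one 97.1 kb upstream ranked at 69.3 in control and 29.5 in HNF4G-KO.

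MMP15 encodes MT2-MMP, a further membrane-type enzyme able to activate MMP2. The human window, at chr16:58025754-58046901 (hg38, plus strand), had the most control-only regions of the 9 genes, 6 of 14 (42.9%, beside 21.2% of control regions on the whole chromosome). All of them ranked low, at 39.1, 19.1, 15.8, 8.12, 4.70 and 0.48. The HNF4G-KO list held 10 regions, 1 of them KO-only at percentile 1.15 near CFAP20. One wide control region over the start, at percentile 73.0, was met by 2 HNF4G-KO regions, at 51.7 and 69.2. An intronic region 1.8 kb into the gene ranked at 70.9 and 72.9, and the ZNF319 promoter, which held the HNF4 consensus in both lists, at 75.7 and 70.3. A region 3.6 kb upstream of the start ranked at 23.1 and 31.8.

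In the KPC lines Mmp15 was the member with the most tumor-only regions, 4 of 8, and it had no mets-only region among the 5 in mets. The gene lies on chromosome 8 from 95352268 to 95375080 (mm10, plus strand). Both tumor-only regions at its start were among the weakest of the list, at percentiles 0.08 and 3.24, and the other 2 ranked at 39.4 near Cngb1 and 21.9 near Tepp. The 2 shared intronic regions ranked lower in mets, from 47.0 to 23.7 and from 67.2 to 49.2, whereas the region 3.6 kb upstream of the start ranked at 29.7 in the tumor and 55.2 in mets. Over the paired tumor regions of the 9 loci, each of these was among the 3 widest differences in its direction. The strongest region, at the Zfp319 promoter, stood at 87.0 in the tumor and was met by 2 mets regions, at 89.6 and 48.0.

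Across the 9 human loci 53 of the 90 shared control regions ranked lower in HNF4G-KO and 37 ranked higher, with a median difference of -2.16 points, beside 70.0% lower and a median of -4.65 over all shared control regions. A longer list places its shared regions higher, because more of its weak regions lie below them. When ranks were taken among the shared regions only, the median at the loci was 4.19 and that of all regions 0.68, so that the direction at the loci turned. At the mouse loci 49 of the 64 shared tumor regions ranked higher in mets and 15 lower, with a median of 6.12 points beside 3.67 over all shared tumor regions. Among shared regions only the medians were 1.64 and 0.99. By gene, the human medians over control regions ran from -9.38 in MMP11 to 4.56 in MMP15, and the mouse medians over tumor regions from -7.69 in Mmp15 to 12.3 in Mmp11. Over HNF4G-KO and mets regions instead, which count each part of a split region, they ran from -10.5 in MMP11 to 1.99 in MMP15 and from -18.0 in Mmp15 to 12.3 in Mmp11.

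**Figure D4:**
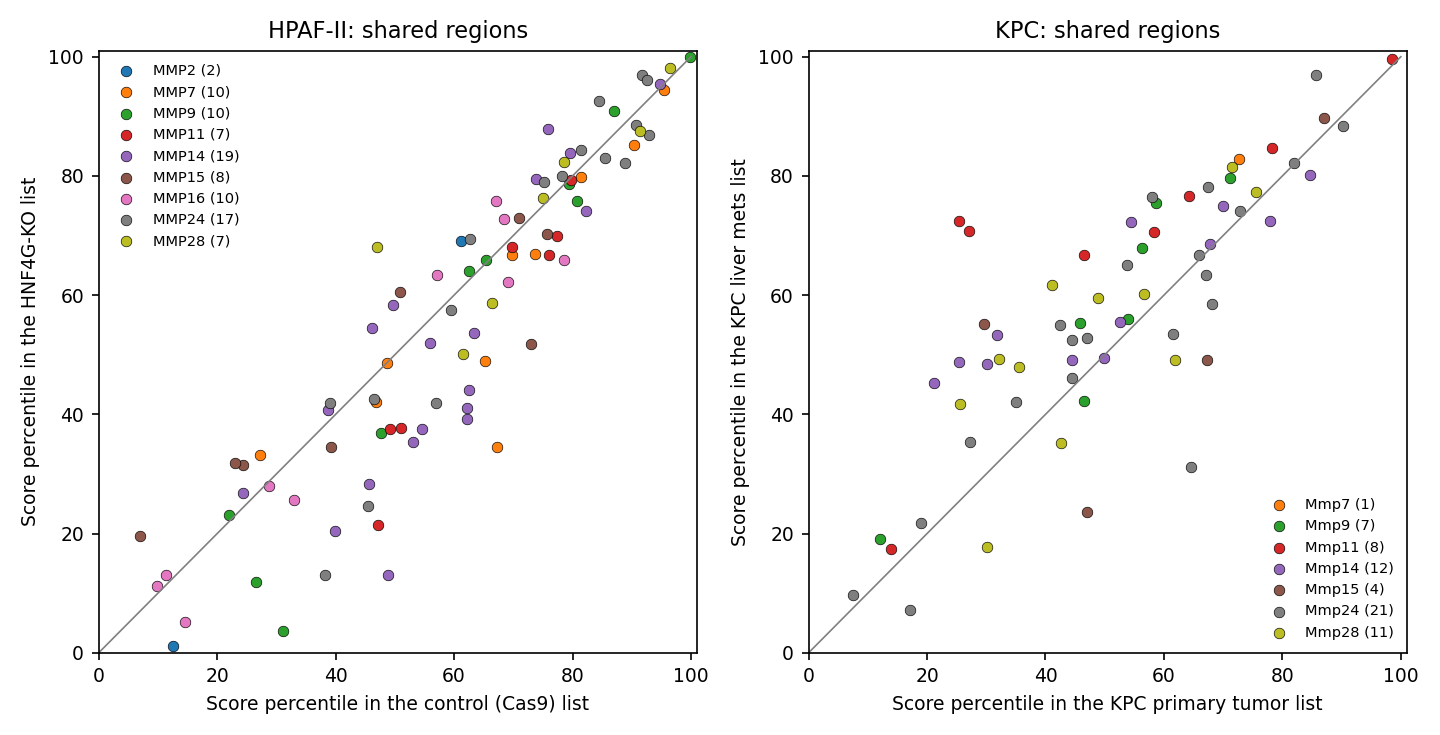
Score percentile of each shared member region in the first list of its pair (horizontal) and in the second list (vertical), colored by gene with the number of regions in the key, and with a grey line of equal rank. In HPAF-II 53 of 90 points lie below the line and the MMP7 start-site region is the orange point at 67.3 and 34.5, and in the KPC lines 49 of 64 lie above it, with 2 Mmp11 regions farthest from it.

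Both strands of every region were searched for 9 short sequences: HNF4 (CAAAGTCCA), FOXA (TGTTTAC), AP-1, TEAD (ACATTCCA), RUNX, GATA factors (as AGATAAG), ETS (CCGGAAGT), PEA3 and TCF (ATCAAAG), and a match was not taken as a bound site. The ETS sequence does not contain the PEA3 one, and both carry the GGAA core of ETS proteins. AP-1 was found in 28.4% of control and 28.3% of HNF4G-KO member regions, beside 31.4% and 31.8% of all regions, and in 36.1% of tumor and 31.7% of mets member regions, beside 38.3% and 36.4%. It occurred in 31 of the 90 shared control regions and in 2 of the 26 control-only ones, which were narrower. HNF4 occurred in 2 of 116 control member regions (1.7%), beside 1.60% of all control regions, and 1 of these was control-only. It occurred in 3 of 72 tumor (4.2%, beside 1.48% of all) and 3 of 82 mets member regions (3.7%, beside 1.28%). ETS occurred in 4.3% of control and 5.1% of HNF4G-KO member regions, beside 1.75% and 2.00% of all. In the mouse it occurred in 5.6% of tumor and 4.9% of mets member regions, beside 2.71% and 2.27%. These counts are small and were not tested. FOXA occurred in 9 of 116 control regions (7.8%, beside 9.76% of all), each of them shared.

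The rest of the family and its regulators were read in the same windows. The 14 other human metalloproteinase genes had 38 control-only among 166 control regions (22.9%, beside 25.0% of all control regions) and 6 KO-only among 132 (4.5%, beside 6.76%), with regions counted once for each gene near them. MMP19, MMP20, MMP23B, MMP8 and MMP1 had 6, 6, 5, 4 and 3 control-only regions, and the windows of MMP1, MMP8, MMP20 and MMP7 lie in one cluster on chromosome 11. The 14 other mouse genes had 25 mets-only among 77 mets regions (32.5%, beside 20.2% of all mets regions) and 8 tumor-only among 58 (13.8%, beside 8.51%), where a region of the chromosome 9 cluster likewise counts for each gene near it. Mmp8, Mmp10, Mmp25 and Mmp27 each had 3 mets-only regions, and Mmp25 also had 3 tumor-only ones. Of the 9 regulators, which comprise the inhibitors TIMP1 to TIMP4 and RECK, the activating protease FURIN, the urokinase genes PLAU and PLAUR, and BSG, an inducer of metalloproteinases, 30 of 132 control regions were control-only (22.7%, beside 25.0%) and 4 of 108 HNF4G-KO regions were KO-only (3.7%, beside 6.76%). PLAUR and BSG had 5 control-only regions each, TIMP3 and FURIN 4 each, and RECK and PLAU 3 each. In the mouse 9 of 110 regulator regions were mets-only (8.2%, beside 20.2%) and 5 of 104 tumor-only (4.8%, beside 8.51%), with 3 of each at Timp3.

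Against all protein-coding genes in the same kind of window, the members were not sparse in HPAF-II, with a median of 14 control and 10 HNF4G-KO regions per gene beside 10 and 9. In the mouse the medians were 8 in both lists beside 6 in the tumor and 7 in mets. At least 1 control-only region was found for 8 of the 9 members, beside 80.5% of all coding genes, and at least 1 KO-only region for 3 of 9, beside 38.6%. For mets-only and tumor-only regions the counts were 5 and 4 of 9, beside 60.4% and 35.6%.

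As a check of the cell type, the start sites of the epithelial genes EPCAM, KRT8, KRT18, KRT19 and CDH1 had a region in all 4 lists, at percentiles of 54.0 to 98.2 in HPAF-II and 13.9 to 65.9 in KPC. The hepatocyte genes ALB and APOA1 had none in any list, liver mets included. Among immune genes PTPRC and CD3E had none and CD68 had one in all 4 lists, at 96.8 in control, 95.1 in HNF4G-KO, 55.7 in the tumor and 60.3 in mets. Of the endothelial genes PECAM1 had one in the KPC lists only, at 84.3 in the tumor and 70.4 in mets, and CDH5 had none in any list. Of the fibroblast genes COL1A1 had one in all 4 lists, at 86.7 in control, 94.1 in HNF4G-KO, 75.8 in the tumor and 79.8 in mets. PDGFRB had one in the HPAF-II lists only, at 82.4 in control and 84.4 in HNF4G-KO. In the KPC lists the regions at Pecam1 and Col1a1 thus ranked above those of all the epithelial genes. What part other cells might have in the member regions was not tested.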

How the data were processed

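Accessible regions came from 4 lists deposited by the authors, 1 per group of 4 ATAC-seq replicates, each with a score per region. No source gives the scale of the deposited score, which was therefore replaced by its percentile within each list (ties averaged). The submitters' processing notes name Bowtie2 2.2.6, MACS2 2.1.1.20160309, DiffBind, hg38, mm10, GRCh38 and GRCm38. The peak threshold, the shift of reads to the cut site and the handling of replicates for ATAC-seq are not given in the sources used here. The part of library strength in the unequal lengths of the lists was not tested, and the reads per replicate were not analysed here. All region ends lay within hg38 (HPAF-II) or mm10 (KPC) chromosomes. Coordinates are 1-based.

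Genes came from GENCODE 44 and M21, promoter sequences from RefSeq, and other bases from hg38 and mm10. Regions, windows and overlaps were computed with Python 3.11.15, numpy, pandas and pysam, and overlap and percentiles were tested on simulated regions. The members and the gene and motif lists were chosen with earlier results of these data known. Genes and regions named are the 9 members, their start-site and strongest regions, one-list regions in the upper 50%, the 3 widest differences each way per pair, and list genes with at least 3 one-list regions. Sequences and regions beyond these, named for context, were chosen after their values were seen.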

Additional observations from a re-analysis of the deposited data

How the results depend on the processing

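Requiring 50% overlap of the shorter region, or counting regions within 500 bp as shared, kept the counts in one list at the 9 loci within 1.5 times of the reported ones. Against the whole other list, the upper 50% of a list held 0 control-only, 0 KO-only, 0 tumor-only and 1 mets-only regions. With the upper 50% of both lists there were 9 control-only and 3 tumor-only regions, with lists of equal size 5 control-only, 9 KO-only, 6 mets-only and 12 tumor-only (which turned both balances), with 10 kb on each side 11 control-only, 3 tumor-only and 8 mets-only, and with 100 kb 44 control-only, 9 KO-only and 14 tumor-only. Regions whose nearest coding start was the member numbered 16 control-only, 1 KO-only and 2 tumor-only, and 50 kb around any start gave 1 KO-only. The median rank difference in HPAF-II turned to 4.19 among shared regions only. Around MMP16, the upper 50% of both lists gave 0 KO-only and 6 mets-only regions, and 500 kb on each side gave 6 mets-only. The causes were not tested, beyond the fewer or more regions each setting counts. Of the 36 counts by gene and list, 34 stayed within 1.5 times with 50% overlap and 10 with the upper 50% of both lists. No paired analysis was possible because each group is represented by 1 list.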
